A study of Mus musculus with 6 samples.

Results

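The genes described here mark the choroid plexus, and the question was how they behave in mouse forebrain without the transcriptional repressors Fezf1 and Fezf2, which pattern the early forebrain. The 9 genes listed were Ttr, Kcne2, Otx2, Folr1, Clic6, Kl, Aqp1, Sostdc1 and Enpp2, and every probe set that the platform annotation assigns to one of them alone was taken. That gave 14 of 34958 single-symbol probe sets, for 8 of the 9 genes. Enpp2, which encodes autotaxin, has no such probe set in the annotation used and was not analysed here. The tissue was forebrain, cut by hand at the caudal limit of the lateral ventricle, of wild-type and Fezf1-/- Fezf2-/- mice. Ages were embryonic day 9.5 (E9.5), 10.5 (E10.5) or 12.5 (E12.5). Each genotype and age has 1 array, 6 in all, so no group has a replicate. The sources used here do not say how many embryos went into an array, what background strain they had, or whether the wild types were littermates.

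The choroid plexus is the secretory epithelium that makes cerebrospinal fluid. In the telencephalon it arises from the dorsal midline, next to the cortical hem, under the influence of Bmp signals from the roof plate. Its epithelial cells secrete transthyretin, carry folate and thyroid hormone, and move water and ions through channels in their apical membrane. In bulk tissue, fewer cells of a type and less RNA per cell cannot be told apart.

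Signals are MAS5 probe set values, quantile-normalized between arrays, without units. The middle of all values on this scale is 24. Differences are on the log2(signal + 6.5) scale, on which 1 means 2-fold and changes of dim probe sets are understated. A pair of arrays was counted as different at 2-fold or more where the brighter signal exceeded 24. With 1 array per group this has no replicate check and no p-value. Tests come from limma fits over the 19318 probe sets whose mean lay above the median. Of the 14 probe sets, 10 passed that filter, from 5 genes. The 4 Ttr probe sets passed it only through their E12.5 arrays. Median deposited signal ran from 14.2 (wild type, E10.5) to 37.1 (knockout, E12.5). From the earliest age to the latest, wild-type Fezf2 read 78.9, 146 and 249 where the knockout arrays read 0.458, 0.904 and 1.66. Wild-type Fezf1 read 251, 143 and 174, and its knockout readings were 97.7, 78.4 and 49.5. Whether these probe sets lie in the deleted parts is not given in the sources used here.

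The data divided the 8 genes. Ttr appeared between E10.5 and E12.5 in both genotypes and stood 7.1-fold to 10.1-fold lower in the knockout at E12.5 on its 4 probe sets. Kcne2 was seen above the middle of all values in wild type at E12.5 alone, and its knockout reading there was too dim to give the size of the difference. Otx2 was higher in the knockout at E10.5 and E12.5, by less than 2-fold. Folr1, Clic6 and Sostdc1 were already measured at E9.5 and differed between genotypes by less than 2-fold at every age, and Kl and Aqp1 stayed below 24 throughout.

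At E12.5 Kcne2 and Otx2 differed in opposite directions, Otx2 by less than 2-fold. Their promoter sequences are shown because Otx2 encodes a homeodomain protein that recognises TAATCC-like letters. They are the 250 bases before an annotated start, from RefSeq (GRCm38.p6), 5′ to 3′ on the gene's strand. Capitals mark TAATCC, or its shorter core TAATC, on either strand (read as GGATTA and GATTA). Every TAATCC also holds a TAATC.
Kcne2, chr16:92292139-92292388, plus strand: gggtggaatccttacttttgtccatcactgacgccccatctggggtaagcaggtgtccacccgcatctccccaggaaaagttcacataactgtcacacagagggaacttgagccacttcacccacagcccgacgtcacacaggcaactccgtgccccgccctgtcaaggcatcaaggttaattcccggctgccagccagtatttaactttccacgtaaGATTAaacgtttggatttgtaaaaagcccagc
Otx2, chr14:48665110-48665359, minus strand: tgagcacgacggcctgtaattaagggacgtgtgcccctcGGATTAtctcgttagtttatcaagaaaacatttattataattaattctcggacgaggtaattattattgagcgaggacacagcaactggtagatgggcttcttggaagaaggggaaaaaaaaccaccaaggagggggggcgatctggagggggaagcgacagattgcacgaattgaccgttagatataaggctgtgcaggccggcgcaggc

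The Kcne2 window holds 1 TAATC core, 28 bases before the start, and no TAATCC. The Otx2 window, the third of 4 starts listed for that gene, holds 1 TAATCC 206 bases before the start. The other Otx2 windows, the second Kcne2 start and the single windows of Kl and Aqp1 hold neither. Of 32851 windows of this length, 6.25% hold TAATCC and 19.8% hold TAATC, so such matches are common, and no binding was measured. Windows of 4 of the 9 genes were read.

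**Figure D1:**
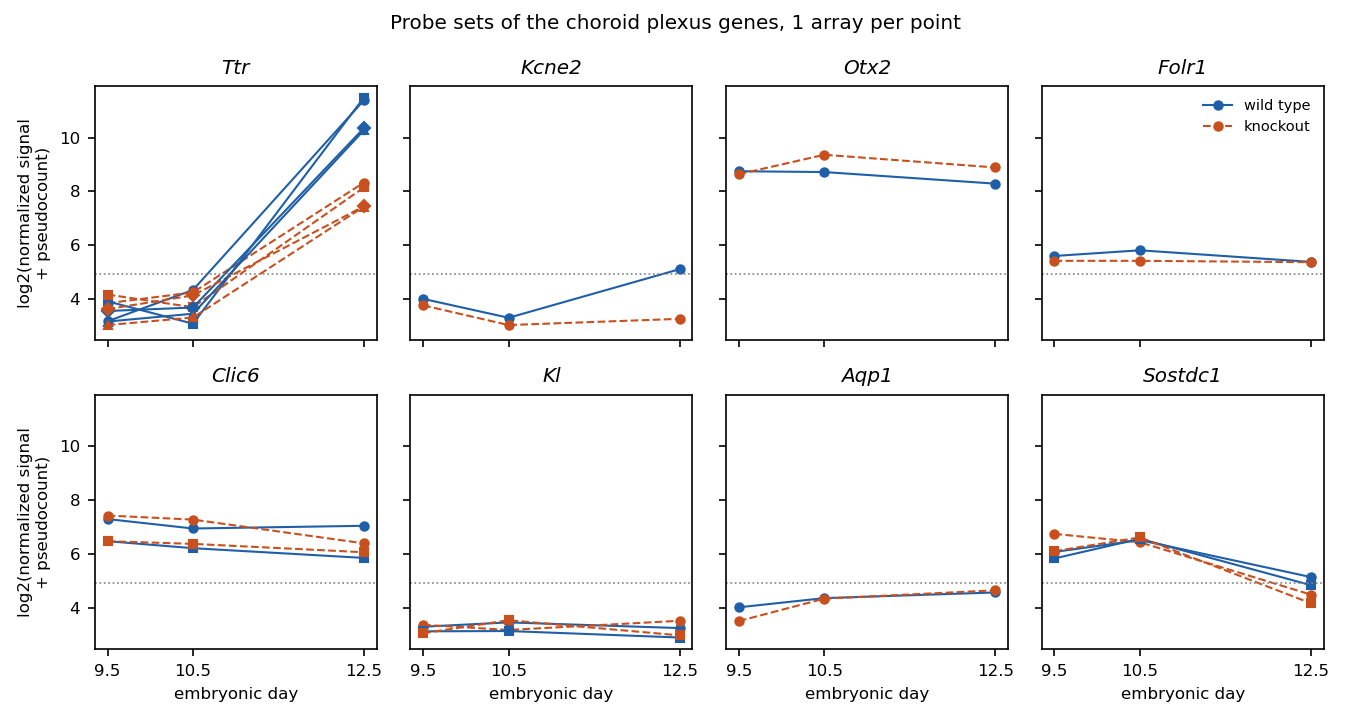
Log2(normalized signal + pseudocount) of the 14 probe sets against embryonic day, 1 panel per gene and 1 array per point, with solid blue for wild type, dashed orange for the knockout, a marker shape per probe set and a dotted line at the filter (4.93). Ttr rises steeply after E10.5 in both genotypes and ends lower in the knockout, while Kl stays under the line on all arrays.

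Ttr encodes transthyretin, the carrier of thyroxine and of retinol-binding protein that choroid plexus epithelium secretes in bulk. On its brightest probe set (1459737_s_at) the signal was 2.63 in wild type and 8.03 in the knockout at E9.5, 14 and 12.7 at E10.5, and 2660 and 314 at E12.5. The second (1454608_x_at) read 8.71 and 11.6, then 2.05 and 6.59, then 2850 and 278. All 4 earlier arrays lay below the middle of all values on both probe sets, and both E12.5 arrays lay far above it.

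The third Ttr probe set (1455913_x_at) read 5.38 and 5.94 at E9.5, 6.49 and 11.3 at E10.5, and 1300 and 168 at E12.5. The fourth (1451580_a_at) read 2.57 and 1.77, 4.6 and 3.57, and 1230 and 167. Every Ttr probe set thus gave the same order at E12.5, with wild type above the knockout and the knockout above all 4 earlier arrays. They report on 1 gene and share their RNA, so they are not replicates. By their suffixes, the first 3 include probes that can match other transcripts.

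At E12.5 the knockout minus wild-type difference of Ttr was -3.06, -3.33, -2.91 and -2.83 on the 4 probe sets. Among 34958 probe sets these ranked 4, 3, 5 and 6 from the lowest. On its own array the brightest probe set stood at percentile 98.8 in wild type and 88.2 in the knockout, a reading that needs no scaling between arrays. At E9.5 the differences were 0.67, 0.25, 0.066 and -0.13, and at E10.5 they were -0.091, 0.61, 0.45 and -0.14, all between signals below the middle of all values. No direction was shared by the 4 probe sets before E12.5.

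From E10.5 to E12.5 the Ttr differences were 7.03, 8.39, 6.65 and 6.79 for wild type, while the knockout gave 4.06, 4.44, 3.29 and 4.11. The E10.5 readings are dim, so the pseudocount sets these sizes: the second probe set ranged from 6.41 to 9.87 in wild type over the alternatives tried. Over both genotypes the change was 5.54 ± 0.66, 6.41 ± 0.73, 4.97 ± 0.63 and 5.45 ± 0.56 (limma's moderated SE, 2 arrays per age). The limma adjusted p values were 1.31e-04, 1e-04, 1.92e-04 and 5.74e-05. Because these probe sets passed the filter only through E12.5, the fit was also run on all 34958 probe sets, where the limma adjusted p values were 0.00117, 0.00093, 0.00159 and 6.19e-04. Between E9.5 and E10.5 no Ttr probe set passed (limma adjusted p from 0.397 to 0.731), and with every reading below the middle of all values a change was not detectable at this signal.

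Whether the genotype difference at E12.5 departed from that at the earlier ages was tested as a genotype by E12.5 term, with 1 residual degree of freedom before moderation. The term was -3.35 ± 0.44, -3.77 ± 0.41, -3.17 ± 0.46 and -2.69 ± 0.51 for the 4 Ttr probe sets. After Benjamini-Hochberg adjustment the limma p values were 0.196, 0.121, 0.224 and 0.535, so none passed. Of all probe sets 0 passed (0%), and 714 (3.7%) had an unadjusted p under 0.05. The call depended on scaling and on the pseudocount. On values as deposited and with a pseudocount of 32 all 4 passed, and with a common trimmed mean the first 2 did. With no filter 0 of the 14 passed, and 0 of all 34958 probe sets. The residual degree of freedom compares the genotype differences at E9.5 and E10.5, which for Ttr lie between signals below 24. The errors and p values therefore hold no spread between Ttr readings at the bright E12.5 signal, through which these probe sets passed the filter. These calls cannot decide the question.

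Averaged over the 3 ages, the Ttr genotype difference was -0.83 ± 0.54, -0.82 ± 0.6, -0.8 ± 0.52 and -1.03 ± 0.46 (limma adjusted p = 0.9999 for each). Of the 10 members in this fit 0 passed, and 0.0311% of all probe sets did (0.00518% higher, 0.0259% lower). At an unadjusted p under 0.05 there were 2 members, against 4.48% of all. Without the E12.5 pair the first 3 values were 0.29, 0.43 and 0.26 and the fourth was -0.14, so the average rests on E12.5.

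Kcne2, a potassium channel subunit of the apical membrane of this epithelium, was like Ttr highest in wild type at E12.5, at much lower signal. Its 1 probe set (1449421_a_at) read 9.72 in wild type and 7.26 in the knockout at E9.5, 3.47 and 1.79 at E10.5, and 28.4 and 3.19 at E12.5. Only the wild-type E12.5 array exceeded the middle of all values, and the knockout was the lower array at each age. The differences were -0.24, -0.27 and -1.85. The probe set stood at percentile 53.1 on the wild-type E12.5 array and at 15.6 on the knockout array. Because the knockout reading is dim, the E12.5 difference ranged from -2.81 to -0.78 over the alternatives tried. From E10.5 to E12.5 Kcne2 rose by 1.81 in wild type. In the knockout it differed by 0.23 between dim signals, where Ttr rose by 3.29 to 4.44. The Kcne2 mean lay under the filter, so Kcne2 was not tested. With a pseudocount of 32 it fell short of 2-fold, as did its wild-type rise (0.77).

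By the 2-fold rule, 5 of the 14 probe sets were lower in the knockout at E12.5, 4 of Ttr and 1 of Kcne2, where 0.257% of all probe sets were. None was higher (0.286% of all). At E9.5 none was counted, against 1.77% of all (0.913% higher, 0.855% lower), and at E10.5 none, against 2.24% (1.06% higher, 1.18% lower). The median difference of the 14 was 0.034, 0.013 and -0.65 at the 3 ages, with 0.0013, -0.00038 and 0.0084 for all probe sets. Counting probe sets gives Ttr 4 places; counting genes, 2 of 8 were lower at E12.5, where 0.236% of 18194 genes were.

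**Figure D2:**
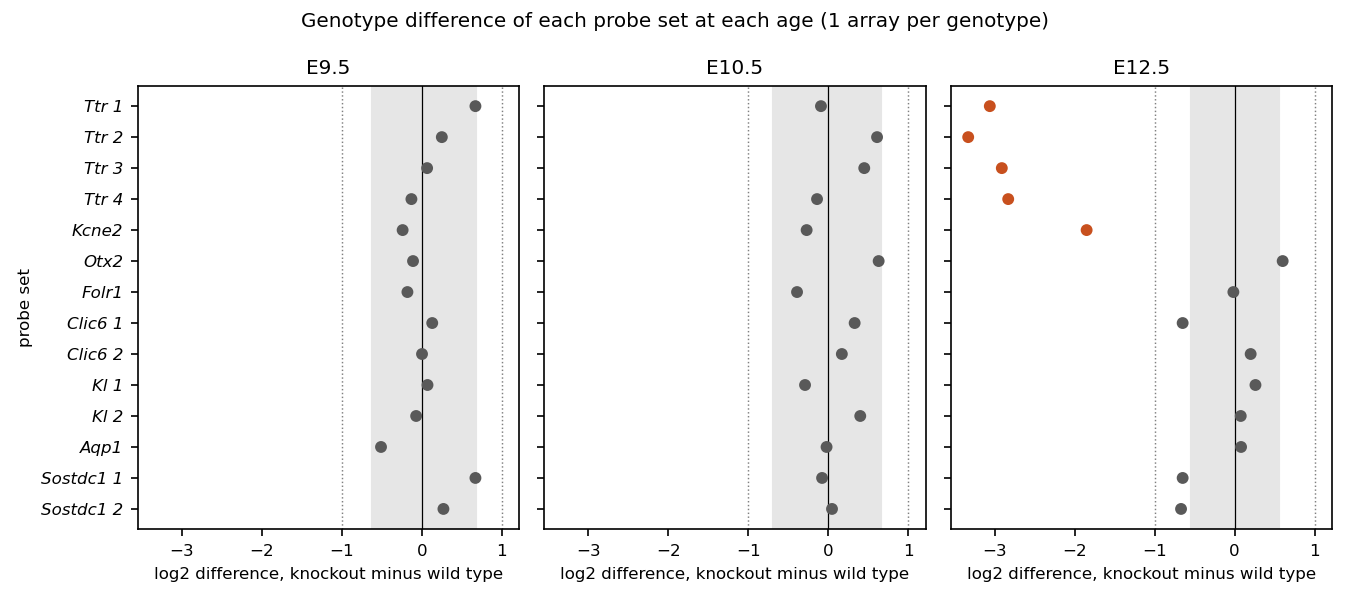
Knockout minus wild-type log2 difference of each of the 14 probe sets at each of the 3 ages, numbered within a gene from the brightest, with orange for those counted at 2-fold, dotted lines at 2-fold, and grey for the range holding 95% of 19318 probe sets above the filter. At E12.5 the Ttr and Kcne2 points lie far left of the grey range, which ends at -0.54.

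Otx2 encodes a homeodomain factor that choroid plexus development requires and that midbrain, diencephalon and eye also express. Its probe set (1425926_a_at) read 424 in wild type and 392 in the knockout at E9.5, 416 and 649 at E10.5, and 307 and 468 at E12.5. The knockout was the higher array at E10.5 and E12.5, by 0.63 and 0.6, and the lower by 0.11 at E9.5 (-0.11). None of these reached 2-fold. The E10.5 value lay within the range of -0.69 to 0.66 that held 95% of probe sets above the filter at that age. Averaged over ages the difference was 0.37 ± 0.14 (unadjusted p = 0.0218; limma adjusted p = 0.9999). Without the E9.5 pair, in which the knockout was the lower array, it was 0.62, with a limma adjusted p of 0.0492. Without the E10.5 pair it was 0.24 and without the E12.5 pair 0.26 (limma adjusted p = 0.999 and 0.9988). The genotype by E12.5 term for Otx2 was 0.34 ± 0.29 (95% interval -0.33 to 1.01; limma adjusted p = 0.9996).

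Genes of the midbrain and caudal diencephalon were higher in the knockout along with Otx2. Of 16 measured on that list, 8 lay above the filter, and their median difference was 0.22, 0.31 and 1.48 at the 3 ages. At E12.5, 7 of the 16 were 2-fold higher in the knockout and 0 lower (0.319% and 0.236% of all genes), and their summed signal was 930 in wild type and 2300 in the knockout. Summed signals were 1690 and 1940 at E9.5 and 1520 and 1860 at E10.5. En1, En2, Pax8 and Dmbx1 stayed below 24 on all arrays. Their part in the Otx2 difference was not tested.

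Otx2 had a lower level at E12.5 than at E10.5 by the fit (-0.45 ± 0.17; limma adjusted p = 0.0496). Of 8 alternatives 2 kept this call. It was lost with a pseudocount of 1, without the filter, with the brightest probe set per gene and without the trend (limma adjusted p = 0.0539, 0.0999, 0.0511 and 0.155), and against E9.5 in place of E10.5 (-0.1; limma adjusted p = 0.615). On values as deposited the change was 0.39 (limma adjusted p = 0.0687), in the other direction. Deposited values shift the median probe set by 0.86 in wild type and 0.82 in the knockout over this interval, against -0.11 and -0.09 after quantile normalization.

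Sostdc1 encodes a secreted antagonist of Bmp and Wnt signals. Its first probe set (1449340_at) read 61 in wild type and 101 in the knockout at E9.5, 85.2 and 80.4 at E10.5, and 29 and 16.1 at E12.5. The second (1460250_at) read 50.7 and 62.7, 88.6 and 91.7, and 22.3 and 11.6. Both were lowest at E12.5 in each genotype, lowest of all in the knockout, and opposite in course to Ttr.

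The fall of Sostdc1 from E10.5 to E12.5 was -1.66 ± 0.29 and -2.08 ± 0.27 (limma adjusted p = 0.00126 and 1.96e-04). In wild type alone it was -1.37 and -1.72, and in the knockout -1.94 and -2.44. On values as deposited the wild-type falls were -0.28 and -0.68, short of 2-fold. The genotype differences were 0.67 and 0.27 at E9.5, -0.077 and 0.047 at E10.5, and -0.65 and -0.67 at E12.5. Neither probe set was counted at 2-fold at E12.5, and the second read below 24 on both arrays there. The E12.5 values fell below the range of -0.54 to 0.55 that held 95% of the 19318 probe sets above the filter. That range pools all brightnesses, while Sostdc1 was dim at E12.5. Otx2 (0.6) and the first Clic6 probe set (-0.65) also lay outside it. The genotype by E12.5 term was -0.95 ± 0.44 and -0.83 ± 0.41 (limma adjusted p = 0.9996 for both).

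Sostdc1 is also made in surface ectoderm, and markers of that tissue fell over the same interval. Their summed signal over 15 genes was 1690 and 2010 (wild type and knockout) at E9.5, 1570 and 1670 at E10.5, and 471 and 417 at E12.5. In wild type 10 of the 15 were at least 2-fold lower at E12.5 than at E10.5, where 5.71% of all probe sets were. Of all genes, 11.1% were counted in either direction. The fall was not particular to this tissue: 10 of 16 mesenchyme genes and 8 of 9 erythroid genes were also 2-fold lower. Krt14 and Krt15 stayed below 24 on all arrays. The part of this tissue in the Sostdc1 values was not tested.

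Clic6, of the chloride intracellular channel family, gave probe sets that disagreed on genotype. The first (1454866_s_at) read 151 in wild type and 166 in the knockout at E9.5, 117 and 149 at E10.5, and 126 and 77.9 at E12.5. The second (1434165_at) read 82.6 and 82.7, 67.9 and 77.1, and 51.7 and 60.5. At E12.5 the first was -0.65 and the second 0.2, so the gene has no single direction there. The genotype by E12.5 term was -0.87 ± 0.27 on the first (unadjusted p = 0.0118; limma adjusted p = 0.9996) and 0.12 ± 0.34 on the second.

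Folr1 (1450995_at) encodes folate receptor alpha, which carries folate into cerebrospinal fluid. It read 42.4 in wild type and 36.5 in the knockout at E9.5, 50 and 36.6 at E10.5, and 35.5 and 35.1 at E12.5. The 6 arrays spanned a narrow range, with differences of -0.18, -0.39 and -0.016. The mean difference was -0.2 ± 0.19 (95% interval -0.63 to 0.23; limma adjusted p = 0.9999). Folr1 showed no call between E10.5 and E12.5 (-0.24 ± 0.24; limma adjusted p = 0.427), although on values as deposited it was 0.85 higher (limma adjusted p = 0.00564).

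Kl encodes Klotho, the co-receptor of Fgf23, and Aqp1 a water channel of the apical membrane that red cells and endothelium also make. The Kl probe sets read between 1.03 and 5.2 over all arrays. Aqp1 (1416203_at) read 9.82 in wild type and 4.97 in the knockout at E9.5, 14.1 and 13.9 at E10.5, and 17.5 and 18.8 at E12.5. None of these 3 probe sets reached 24 on any array, so no genotype difference was detectable for them at this signal. Summed over erythroid genes, the wild-type E12.5 array read 14100 and the knockout 17500, and over endothelial genes 798 and 794. Their part in the Aqp1 values was not tested.

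Across age, the fit gave 4 of the 10 filtered probe sets higher at E12.5 than at E10.5, all of Ttr, and 3 lower, from Sostdc1 and Otx2, where 19.8% and 27.8% of all tested probe sets were (47.6% in all). With no filter it gave 4 of 14 higher and 2 lower, against 24.8% in all. Between E9.5 and E10.5 it gave 0 of 10 (1 at an unadjusted p under 0.05), against 30.2%. Comparing single arrays in wild type, 5 of 14 were 2-fold higher at E12.5 than at E10.5, and 2 lower (5.64% and 5.71% of all, 11.4% together). In the knockout 4 were higher and 2 lower (5.74% and 6%, 11.7% together). Kcne2 was the probe set counted in wild type and not in the knockout.

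Of 40 other genes of this epithelium listed, 38 were measured, 13 of them below 24 on all arrays, among them Htr2c, Cldn1, Cldn2, Tmem72 and Slc4a5. None of the 38 was 2-fold different between genotypes at E12.5 with the brighter signal above 24 (0 higher, 0 lower), where 0.319% and 0.236% of all genes were. The 21 above the filter had a median of -0.08, with 14 of them lower in the knockout, against a median of 0.016 for all genes. Their medians were 0.078 at E9.5 and 0.079 at E10.5.

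Among those with the brighter signal above 24, the largest E12.5 difference on that list was in Igf2, a growth factor secreted into cerebrospinal fluid, with 967 in wild type and 631 in the knockout (-0.61). Col8a2, a collagen chain, read 35.1 and 22 (-0.55), Slc4a10, a bicarbonate transporter, 36.7 and 25.6 (-0.43), Cgnl1, a junction protein, 50.3 and 36.1 (-0.41), and Kcnj13, a potassium channel, 26 and 20.5 (-0.27). Comparing single wild-type arrays, 2 of the 38 were 2-fold higher at E12.5 than at E10.5, and 10 lower. Of all genes 4.89% were higher, and 11.1% were counted in either direction. Slc4a10, too dim at the earlier ages to pass the filter, rose by 2.53 in wild type and by 1.16 in the knockout. Its E10.5 readings were 0.9972 and 7.86. By the fit from E10.5 to E12.5, only Vat1l of the 21 above the filter rose (0.88 ± 0.17; limma adjusted p = 0.00209), and 13 fell, where 19.8% and 27.8% of probe sets did. Those with the largest falls, Krt18, Cdh1, Krt8 and Perp, are epithelial genes of surface ectoderm too (-3.98, -3.97, -3.09 and -2.8; limma adjusted p from 9.7e-07 to 1.59e-05). Cldn3, another junction gene, was at -2.5, and its E12.5 genotype difference was -1.19 between signals not above 24.

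Of 16 measured cilium genes, which choroid plexus cells need for their tufts of cilia, 5 lay above the filter and 10 reached 24 at E12.5. The 5 above the filter had a median E12.5 difference of 0.051, with 2 lower in the knockout. Foxj1, the master factor of motile cilia, read 42.8 in wild type and 24.3 in the knockout at E12.5 (-0.68), and -0.6 and -0.75 were its differences at E9.5 and E10.5. Trp73 read 52.2 and 29.4 (-0.71), Ccno 31.3 and 15.5 (-0.78), Dynlrb2 42.4 and 19.1 (-0.93), and Rsph1 26.7 and 9.39 (-1.06). These genes, from Foxj1 to Rsph1, had the largest E12.5 differences of the list with the brighter signal above 24, all lower in the knockout. None of them lay above the filter. Foxj1 at E9.5 read 11.2 in wild type and 5.19 in the knockout, both below 24. Ccno was higher in the knockout at E9.5 and E10.5 (0.95 and 0.74). Rsph1 was already lower at E10.5, with 28.5 in wild type and 5.09 in the knockout (-1.6). From E10.5 to E12.5 Rsph1 differed by -0.077 in wild type. At E12.5 Tekt1 (0.33), Cdkn1c (0.11) and Ccdc39 (0.051) were higher in the knockout. Of the list, 1 gene was counted lower at 2-fold at E12.5 (Rsph1) and 0 higher, where 0.236% and 0.319% of all genes were.

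Among inducing signals of the hem and roof plate 24 were measured. Of these, 21 lay above the filter, with median differences of 0.048, -0.11 and -0.2, and 14 of the 21 were lower in the knockout at E12.5. Their summed signal was 6280 in wild type and 5580 in the knockout at E12.5. Bmp7, Rspo3 and Wnt3a, secreted ligands and an enhancer of Wnt signalling, were at -0.67, -0.64 and -0.42, Id3, a target of Bmp signalling, at -0.48, and Lmx1b, a roof plate and midbrain factor, at 1.02. Lmx1b alone was counted at 2-fold at E12.5, where 0.319% of all genes were higher and 0.236% lower. At E10.5 Lmx1b was already at 1.03 and Rspo3 at -0.96, with Bmp7 at -0.11, Wnt3a at 0.31 and Id3 at 0.038. Lmx1a and Wnt2b stayed below 24 on all arrays.

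**Figure D3:**
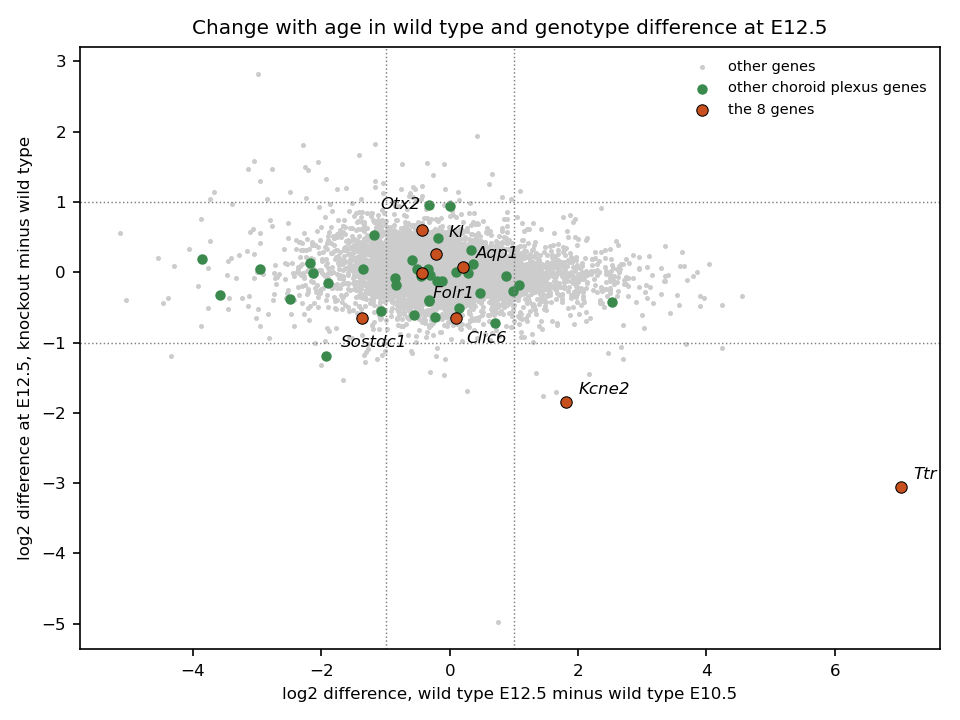
Each point is a gene at its brightest probe set, with the wild-type log2 difference from E10.5 to E12.5 on the horizontal axis and the knockout minus wild-type log2 difference at E12.5 on the vertical axis; dotted lines mark 2-fold. Ttr and Kcne2 lie at the lower right, at 7.03 and -3.06 and at 1.81 and -1.85, and no other choroid plexus gene, in green, lies past 2-fold in both of those directions; Cldn3 is at -1.93 and -1.19.

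The course of Ttr and Kcne2, at least 2-fold up in wild type from E10.5 to E12.5 and at least 2-fold lower in the knockout at E12.5, was shared by 19 of 18194 genes (0.104%), where the rise alone was seen in 4.89%. Both differences use the wild-type E12.5 array, so a high reading there raises both. Ttr had the largest fall of the 19 and Kcne2 the fourth largest. The others among the first 10 were Olig3 (-2.05), Tnc (-1.9), S100a8 (-1.77), Mid1 (-1.76), Pmch (-1.7), Aldoc (-1.45), Prss55 (-1.43) and Pcp4 (-1.43).

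Genes with the course most like Ttr over the 6 arrays, by Pearson correlation with its brightest probe set, were Arfgef3 (0.998), Rlbp1 (0.992), 2310067E19Rik (0.991), Chl1 (0.988), Sstr2 (0.988) and Rcan2 (0.981). They were taken from 924 genes with a log2 range of at least 2, of which 65 exceeded 0.95. The points share arrays and age, and the E12.5 pair sets most of the value. None of the 6 had as large an E12.5 difference as Ttr: they lay between -1.08 (Chl1) and -0.51 (Rlbp1).

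Ttr is made in other tissues as well, and their markers were read in the same arrays. Of 10 measured genes of visceral endoderm and liver, none reached 24 on either E12.5 array, and their summed signal was 79.9 in wild type and 79.6 in the knockout. Of 10 of retinal pigment epithelium, Tyrp1, Rpe65 and Slc45a2 stayed below 24 on all arrays, and the sum was 239 and 207 at E12.5. The 5 above the filter were all lower in the knockout at E12.5, with a median of -0.46. At E9.5 0 of these 5 were lower (median 0.6), and at E10.5 4 were (median -0.38). Only 3 of the 10 exceeded 24 on an E12.5 array. Rlbp1, a retinoid-binding protein, read 79.9 in wild type and 54.2 in the knockout (-0.51), Mitf 29 and 19.3, and Dct 74.4 and 74.2. Rlbp1 is also among the genes with the course most like Ttr. The summed signal of the 10 in wild type was 466 at E10.5, above its E12.5 value. From E10.5 to E12.5 in wild type, Rlbp1 differed by 1.84, Dct by 0.072 and Mitf by -1.17. Of the 10, 1 was 2-fold higher and 3 lower, where 11.1% of all genes were counted in either direction. The part of this epithelium in the Ttr values was not tested.

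Genes of choroid stroma, meninges and head mesenchyme were lower in the knockout at E12.5 together with Ttr. All 16 on the list lay above the filter, 15 of them were lower at E12.5, and their median difference was -0.52, against 0.42 at E9.5 and -0.013 at E10.5. By the 2-fold rule 1 was counted lower, Foxd1 (82.3 and 29; -1.32), and 0 higher, where 0.236% and 0.319% of all genes were. Summed signal was 5440 in wild type and 7130 in the knockout at E9.5, 10000 and 10400 at E10.5, and 3000 and 2020 at E12.5. Their part in the Ttr difference was not tested. Whether the dissections held different amounts of dorsal midline tissue cannot be told apart from a difference in the tissue itself, since each group is 1 array.

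**Figure D4:**
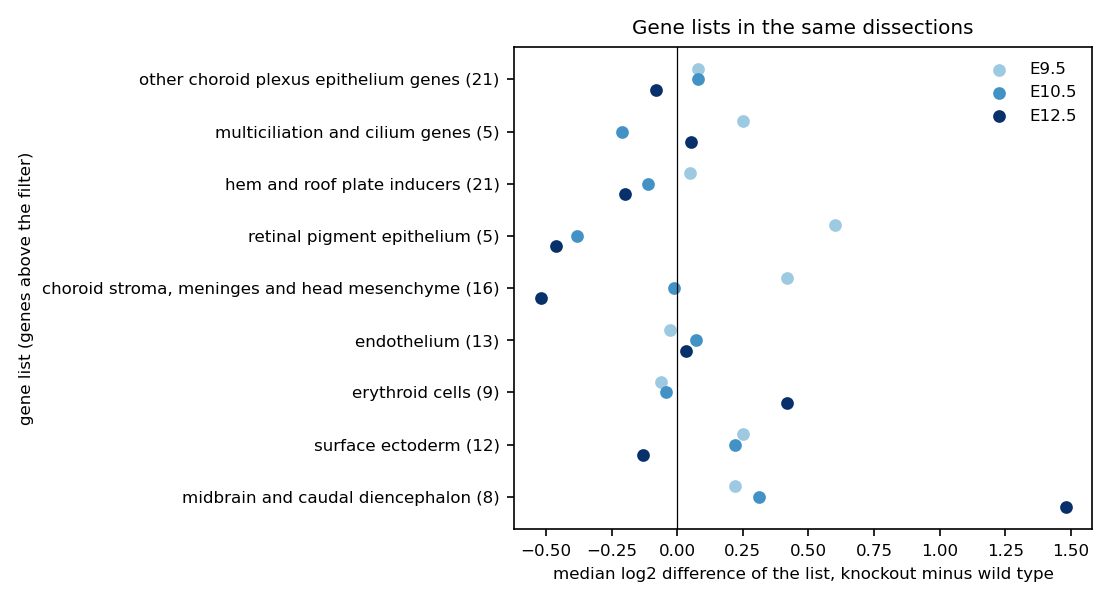
Median knockout minus wild-type log2 difference of each gene list at each of the 3 ages, from pale to dark blue, over the genes above the filter (number in brackets). At E12.5 the mesenchyme list lies at -0.52 and the midbrain and caudal diencephalon list at 1.48, while the other choroid plexus genes lie at -0.08.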

How the data were processed

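Probe set intensity on a linear scale was deposited for 6 arrays. The submitters' processing notes name MAS5. Detection calls and a scaling target were not used here. GEO's platform annotation named the probe sets: 34958 name 1 gene, 932 several and 9211 none that is listed. Arrays were quantile-normalized and log2(signal + 6.5) was taken, the pseudocount being the lower quartile of deposited values. Genotype and age effects were fitted with limma 3.58.1 (lmFit, eBayes with a trend) in R 4.3.3, genotype plus age, on the 19318 probe sets with a mean above the median (2 residual degrees of freedom, plus 7.71 from moderation). A second fit added a genotype by E12.5 term (1 plus 7.13). Adjustment was Benjamini-Hochberg at 0.05 over all tested probe sets. P-values measure only the spread between these arrays, whose number limits the precision. Both fits were also run on simulated data with independent noise around fitted values. No result here rests on that run, which cannot stand in for replicate arrays.

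Members, gene lists and tests were chosen with earlier results of these data known. For the other choroid plexus, cilium and hem lists, the 5 largest E12.5 differences with the brighter signal above the median were named. For retinal pigment epithelium every gene with such a signal was named, and for mesenchyme Foxd1 alone. The midbrain, surface ectoderm, endothelial and erythroid lists are given without their largest differences by name. The 10 largest falls of the joint course and the 6 genes most like Ttr were also named. Genes not on these lists' rule that are named for staying below 24, or for their fall with age, were chosen after their values were seen. A gene outside the members takes its brightest probe set.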

Additional observations from a re-analysis of the deposited data

Results flagged for a closer look

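The first Sostdc1 probe set differed in opposite directions at the first and last age, by 0.67 (knockout higher) at E9.5 and by -0.65 at E12.5, each at least 1.5-fold with the brighter signal above the middle of all values. The E9.5 value lay within the range of -0.62 to 0.68 that held 95% of the probe sets above the filter at that age. Of all probe sets 5.65% were counted at 1.5-fold at E9.5 and 2.83% at E12.5. The share of all probe sets with opposite directions was not computed. The second Sostdc1 probe set gave 0.27 and -0.67. The contrast of these ages alone was not tested. The term that sets E12.5 against both earlier ages was -0.95 ± 0.44 for the first probe set, with a limma adjusted p of 0.9996.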

How the results depend on the processing

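The Ttr differences at E12.5 kept their direction and stayed past 2-fold under each scaling, pseudocount, fold and minimum tried, between -3.36 and -2.4 over the 4 probe sets. Of 794 member values under single alternatives, 724 kept direction and call, 29 moved, 28 gained a call, 12 lost one and 1 reversed. The reversed value was Otx2 from E10.5 to E12.5, 0.39 on values as deposited.

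Values as deposited gave 2 calls in place of 0 between E9.5 and E10.5, both Clic6 and lower, where 49.2% of all probe sets were called. They changed the higher and lower calls from E10.5 to E12.5 to 7 and 2 in place of 4 and 3 in the fit (79.7% of all called), to 6 and 0 in place of 5 and 2 in wild type (28.9%), and to 6 and 2 in place of 4 and 2 in the knockout (29.3%). The genotype by E12.5 term had 4 calls on values as deposited (0.134% of all), 2 with a common trimmed mean (0.0413%) and 4 with a pseudocount of 32 (0.0409%), all Ttr, in place of 0. The error behind these calls holds no spread between Ttr readings at E12.5. At 1.5-fold, 1 probe set was counted at E9.5 (Sostdc1; 5.65% of all), 1 at E10.5 (Otx2; 6.93%) and 8 at E12.5 (2.83%) in place of 5. With the brightest probe set per gene, the counts were 2 at E12.5, 3 for wild type, 2 for the knockout and 2 in the E10.5 to E12.5 fit, since Ttr then counts once. Of the other choroid plexus genes' 74 probe sets, 2 were counted on values as deposited (1.94% of all), 1 with a trimmed mean (0.858%), 2 at 1.5-fold (2.83%) and 3 without a minimum signal (3.38%), in place of 0.

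With E9.5 as the earlier age, an alternative chosen after seeing the data, the Ttr calls held, Otx2 lost its call (-0.1; limma adjusted p = 0.615) and both Clic6 probe sets were called lower (limma adjusted p = 0.0274 and 0.0327). The wild-type Sostdc1 falls were then -0.93 and -0.99, short of 2-fold. Wild type and knockout were paired by age in each fit. Leaving out 1 age pair gave between 0 and 1 genotype calls over ages, the 1 being Otx2, and without the age block there were 0. Signal over background limits Kl, Aqp1, Kcne2 and the Ttr readings before E12.5.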

Other observations

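Kcne2 and Clic6 lie on chromosome 16 with 11 annotated genes between them in the gene order of GRCm38.p6, 7 of them measured. At E12.5 Kcne2 differed by -1.85 between genotypes, and the bright genes between them, Smim11 and Rcan1, by -0.17 and 0.32. Those bright neighbours were chosen after their values were seen.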
